A study of Danio rerio with 30 samples.

Results

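In the adult zebrafish retina, 57 of 32520 measured genes had a mean level that was higher 2 days after a needle poke than in uninjured retina and higher again when the fish swam in either of 2 drugs, PLX3397 or ZVAD-fmk. The genes were chosen on group means of CPM (counts of a gene scaled to the total count of its library) in the needle poke experiment. The log2 ratio of poked retinas in DMSO over untreated uninjured retinas had to be at least 1, the ratio of each drug over DMSO had to be at least 1, and the mean had to reach 5 CPM in both drug groups. A pseudocount of 0.5 CPM was added to each mean. Of 25975 genes with a count, 2577 passed the poke threshold (9.92%), 1959 passed the PLX3397 threshold (7.54%) and 781 passed the ZVAD-fmk threshold (3.01%). Of the 1474 poke-raised genes with 5 CPM in both drug groups, 58 passed both drug thresholds (3.93%), and 57 of them are described here. Across all 12767 genes with that level, whatever the poke did to them, 441 passed both drug thresholds (3.45%). The 2 drugs were set against the same 3 DMSO libraries, so their ratios share that denominator, and the ratios of poke over untreated and of drug over DMSO are given for the 57 genes as descriptions with no test. The same DMSO mean is also the numerator of the poke ratio.

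All fish of the needle poke experiment were wild type, and the 4 groups of 3 libraries were uninjured retinas without treatment and poked retinas from fish kept in DMSO (the solvent), PLX3397 or ZVAD-fmk. No uninjured fish received DMSO or a drug, so the untreated group differs from the DMSO group in solvent as well as in injury. The NMDA experiment held uninjured and NMDA-injected retinas, without drugs, of wild-type fish, of csf1ra mutants and of csf1rb mutants, again with 3 libraries per group; the alleles are not given in the sources used here. These 18 libraries played no part in the choice of the genes. Retinas of injured fish were collected 2 days after injury. Library titles carry the letters MG, while the extraction notes describe whole retinas with no sorting of cells, and in whole tissue fewer cells of a type and less RNA per cell cannot be told apart.

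PLX3397 (pexidartinib) blocks Csf1r, a receptor kinase that microglia and macrophages need for their survival and that zebrafish carry as the paralogs csf1ra and csf1rb. ZVAD-fmk is a broad inhibitor of caspases, the proteases of apoptosis. After injury, Müller glia of the zebrafish retina re-enter the cell cycle and give rise to new neurons, and cytokines that signal through gp130, such as interleukin 11, are among the known triggers of that response. Activated microglia and macrophages gather at the injury and release cytokines of their own.

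Libraries of needle-poke fish and their controls held 38933511 to 92198888 counts each, and those of the NMDA series held 22849708 to 41622168. In the csf1ra mutants csf1ra itself stood at 0.254 ± 0.0810 CPM (SD, n = 3) in uninjured retina against 4.28 ± 0.320 CPM in the wild type. In the csf1rb mutants csf1rb stood at 0.171 ± 0.173 CPM against 0.615 ± 0.251 CPM, a level too low in the wild type for a firm check, and csf1ra there stood at 1.37 ± 0.462 CPM. Poked retinas in PLX3397 held 5.88 ± 1.89 CPM of csf1ra, against 16.4 ± 13.4 CPM in DMSO and 14.0 ± 1.86 CPM in ZVAD-fmk. Earlier results of these data placed 4 libraries of the needle poke experiment apart from their groups, namely untreated replicate 2, DMSO replicate 3, PLX3397 replicate 2 and ZVAD-fmk replicate 1. The ratios of the 57 genes without these libraries are given after the account by role.

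The 57 genes fall into ligands and secreted proteins, complement and coagulation factors, receptors, proteins of the cytoskeleton and cell contacts, nuclear proteins, and transporters and enzymes; 15 carry only an Ensembl ID or a clone name. The summed level of the 57 genes was 921 to 1074 CPM in the untreated libraries and 3646 to 4301 CPM in DMSO. It was 8886 to 15208 CPM in PLX3397 and 10660 to 11765 CPM in ZVAD-fmk, so every library of a drug group lay above every DMSO library. The median log2 ratio over the 57 genes was 1.58 for the poke (range 1.04 to 6.53), 1.55 for PLX3397 over DMSO (1.01 to 3.57) and 1.40 for ZVAD-fmk over DMSO (1.02 to 2.44). The PLX3397 ratio was the larger of the pair for 33 genes and the ZVAD-fmk ratio for 24. Against untreated retina, the median log2 ratio reached 3.13 in PLX3397 and 3.20 in ZVAD-fmk.

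**Figure D1:**
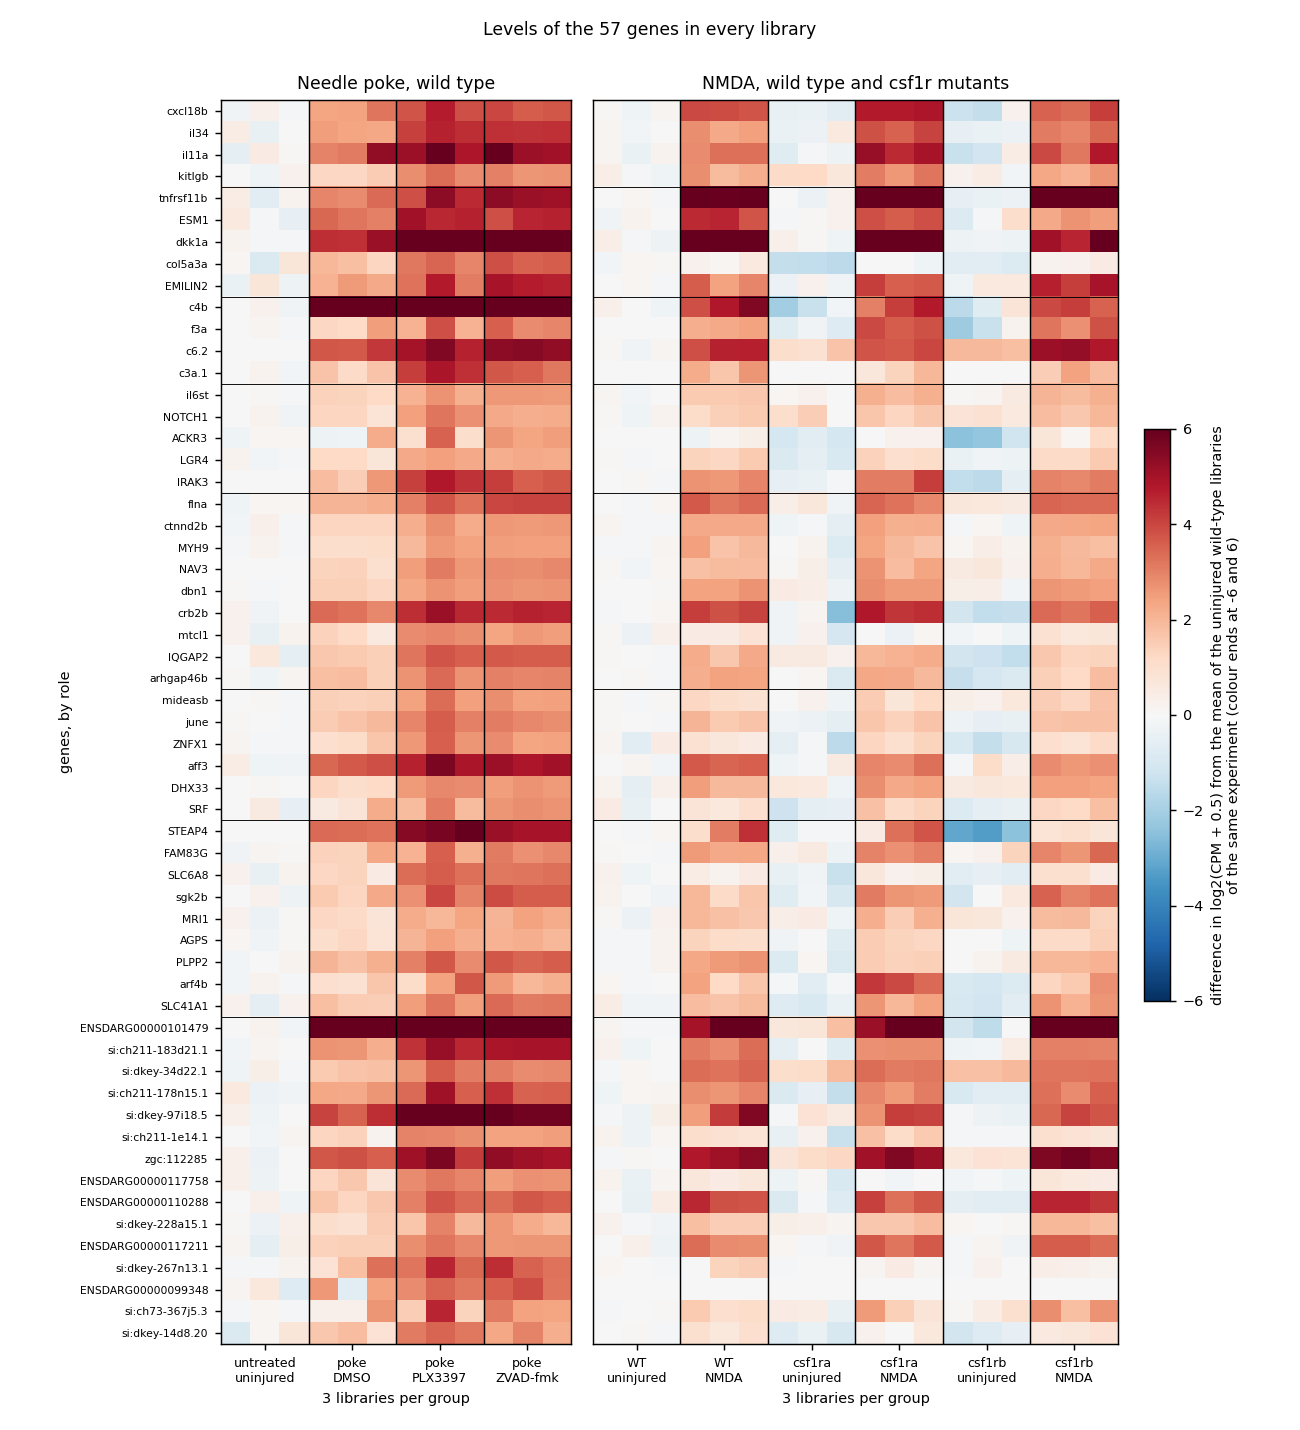
Each row is 1 of the 57 genes, ordered by role, and each column is 1 library; colour gives the difference in log2(CPM + 0.5) from the mean of the uninjured wild-type libraries of the same experiment. The 3 libraries of each drug group are darker red than the DMSO libraries for most genes, and the NMDA groups are red for most genes in all 3 genotypes. PLX3397 replicate 2 (the middle column of its group) had the highest CPM of its group in 52 genes. The colour scale is cut at both ends, so larger differences share 1 colour.

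Close to the thresholds, SLC6A8 and a clone-named gene, both at a log2 ratio of 1.04, lay just inside for the poke, and just outside were nr1d4b at 1.00 (below 1 before rounding) and trim69 at 0.98. For PLX3397, SRF (ENSDARG00000102867) at 1.01 and il6st at 1.02 lay inside, and PDGFA (ENSDARG00000109371) and LMNA, both at 0.99, lay outside. For ZVAD-fmk, arf4b and si:dkey-14d8.20, both at 1.02, lay inside, and KIF26A (ENSDARG00000015016) at 0.99 and lsp1a at 0.98 lay outside. On level, si:dkey-14d8.20 with 5.08 CPM in its lower drug group was inside and BAIAP3 with 4.93 CPM was outside.

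Among the 57 genes were 4 secreted signals that act on other cells. The interleukin il11a, a cytokine of the interleukin 6 family that signals through gp130, read 0.0514, 0.643 and 0.353 CPM in the 3 untreated libraries and 5.85, 6.61 and 31.5 CPM in DMSO. It read 28.4, 126 and 22.9 CPM in PLX3397 and 66.5, 27.8 and 26.2 CPM in ZVAD-fmk. The third DMSO library lay above 2 of the 3 libraries of each drug group, so the groups overlapped, and the log2 ratios of 1.98 and 1.42 rest on wide spreads (14.7 ± 14.6 CPM in DMSO and 59.2 ± 58.2 CPM in PLX3397, means ± SD over 3 libraries, as for all means below). The ligand il34, which activates the same receptor that PLX3397 inhibits, read 3.7, 1.71 and 2.55 CPM untreated and 17, 15 and 14.7 CPM in DMSO. Its levels were 51.5, 75.2 and 64.3 CPM in PLX3397 and 62.2, 60.7 and 63.2 CPM in ZVAD-fmk. The untreated and DMSO libraries did not overlap, nor did DMSO with either drug, while the 2 drug groups did, and the means of 63.7 ± 11.9 CPM and 62 ± 1.24 CPM under the drugs differed by less than their spread.

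The chemokine cxcl18b, which attracts neutrophils in zebrafish, read 60.3, 87.7 and 65.5 CPM untreated and 361, 377 and 651 CPM in DMSO. In PLX3397 it read 962, 1836 and 1035 CPM and in ZVAD-fmk 1127, 884 and 923 CPM. Every drug library exceeded every DMSO library. The Kit ligand kitlgb, a growth factor for cells that carry the Kit receptor, had means of 1.56 ± 0.366 CPM untreated, 4.7 ± 0.578 CPM in DMSO, 15.9 ± 3.54 CPM in PLX3397 and 13.6 ± 1.99 CPM in ZVAD-fmk. Its 4 groups showed the same order as those of il34, with no overlap between DMSO and either drug.

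Among secreted inhibitors and matrix proteins, dkk1a, an inhibitor of Wnt signalling, was almost without counts in untreated retina, with 0.128, 0 and 0 CPM. It read 11, 10.9 and 19.2 CPM in DMSO, 33.4, 61 and 37.6 CPM in PLX3397 and 42.7, 35.7 and 37.9 CPM in ZVAD-fmk. The groups did not overlap at either step. The decoy receptor tnfrsf11b (osteoprotegerin), which binds the cytokine RANKL, had means of 3.92 ± 1.5, 35.2 ± 7.36, 110.1 ± 58 and 158 ± 15.7 CPM in the same order of groups. For ESM1, a proteoglycan that endothelial cells secrete, the means were 2.25 ± 1.08, 24.4 ± 3.71, 70.16 ± 14.7 and 54.1 ± 14.7 CPM, and the lowest ZVAD-fmk library at 37.2 CPM still exceeded the highest DMSO library at 28.3 CPM. Of the matrix glycoprotein EMILIN2 and the collagen chain col5a3a, the first had the largest ZVAD-fmk ratio of all 57 genes, a log2 ratio of 2.44. EMILIN2 read 3.16, 4.66 and 3.72 CPM in DMSO and 26.2, 22.1 and 21.2 CPM in ZVAD-fmk, whereas its PLX3397 values of 7.83, 23.5 and 6.86 CPM were led by 1 library.

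Complement and coagulation contributed c4b, c6.2, c3a.1 and f3a. The complement component c4b had the largest poke ratio of the 57 genes, a log2 ratio of 6.53, from 2.05, 2.59 and 1.76 CPM untreated to 250.0, 246 and 234 CPM in DMSO. It read 597, 973 and 826 CPM in PLX3397 and 533, 545 and 554 CPM in ZVAD-fmk, so no library of one group fell into the range of the next, and the 3 ZVAD-fmk libraries lay below all 3 PLX3397 libraries. The central complement factor c3a.1 was at 0.0514, 0.146 and 0 CPM untreated and 1.34, 0.746 and 1.32 CPM in DMSO, against 9.62, 16 and 11.4 CPM in PLX3397 and 6.86, 6.24 and 4.55 CPM in ZVAD-fmk. The terminal component c6.2 had means of 0.544 ± 0.0285, 15.2 ± 3.69, 35.5 ± 11.7 and 42.9 ± 1.97 CPM. Tissue factor, f3a, which starts coagulation, was at 166, 159.6 and 396 CPM in DMSO, 295, 1017 and 297 CPM in PLX3397 and 830.2, 507 and 529 CPM in ZVAD-fmk. In DMSO and in PLX3397 a single library held more than the other two together, and 2 of 3 PLX3397 libraries lay below the highest DMSO library.

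Receptors and their inhibitors were il6st, NOTCH1 (ENSDARG00000052094), ACKR3 (ENSDARG00000058179), LGR4 and IRAK3. The gene il6st encodes gp130, the shared receptor chain for il11a, and read 47, 49.3 and 45 CPM untreated and 124, 121 and 107 CPM in DMSO. Under the drugs it read 205, 304 and 208 CPM in PLX3397 and 290.2, 288 and 277 CPM in ZVAD-fmk. Neither drug group overlapped with DMSO, nor DMSO with the untreated group. The Notch receptor NOTCH1, whose pathway holds back the division of Müller glia in fish, had means of 43.6 ± 6.39, 97.4 ± 16.8, 311 ± 81.2 and 204 ± 8.21 CPM. IRAK3, an inhibitor of Toll-like and interleukin 1 receptor signalling, had means of 2.23 ± 0.0593, 10.9 ± 4.75, 59.1 ± 16.1 and 38.9 ± 8.38 CPM. LGR4, a receptor for R-spondins that strengthens Wnt signalling, went from 9.7 ± 1.44 CPM untreated to 20.6 ± 3.85 CPM in DMSO and to 50.6 ± 4.81 and 47.2 ± 2.15 CPM under PLX3397 and ZVAD-fmk. ACKR3, a scavenger receptor for the chemokine Cxcl12, was a different case. It read 20.3, 26.6 and 26.1 CPM untreated and 19.8, 19.9 and 115 CPM in DMSO, so the first and second DMSO libraries lay below the untreated range and the third above it, and without it the log2 poke ratio was -0.29.

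The cytoskeleton, cell contacts and polarity accounted for 9 genes, with median log2 ratios of 1.37 for the poke, 1.3 for PLX3397 and 1.40 for ZVAD-fmk. The actin crosslinker flna read 93.1, 119.9 and 118 CPM untreated and 445, 447 and 505 CPM in DMSO. It read 882, 1508 and 1060.2 CPM in PLX3397 and 1784, 1825 and 1812 CPM in ZVAD-fmk, and all 3 ZVAD-fmk libraries lay above all 3 PLX3397 libraries. The non-muscle myosin heavy chain MYH9 (ENSDARG00000001014) had means of 108 ± 13.1, 227 ± 2.86, 548 ± 120.3 and 602 ± 9.996 CPM. The catenin ctnnd2b, which binds cadherins, had means of 145 ± 25.7, 351 ± 1.49, 773 ± 188 and 866 ± 21 CPM. Both showed non-overlapping groups between DMSO and each drug. The scaffold protein gene IQGAP2 read 12.1, 11.9 and 10.8 CPM in DMSO, 37.8, 56 and 48.7 CPM in PLX3397 and 53.4, 50.6 and 51.2 CPM in ZVAD-fmk. The polarity gene crb2b, of the Crumbs complex, had the largest poke ratio of this group, a log2 ratio of 3.19, and means of 48.9 ± 8.81 CPM in DMSO, 144 ± 41.7 CPM in PLX3397 and 126 ± 5.86 CPM in ZVAD-fmk. The other members of the group were the microtubule-associated genes NAV3 and mtcl1, the actin-binding drebrin gene dbn1, and arhgap46b.

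Nuclear and RNA-binding proteins accounted for 6 genes, namely june (of the Jun family), SRF (serum response factor), aff3, mideasb, ZNFX1 and DHX33, of which ZNFX1 and DHX33 are helicases. Their median log2 ratios were 1.37 for the poke, 1.47 for PLX3397 and 1.31 for ZVAD-fmk. The mean of june was 7.13 ± 0.334 CPM untreated, 24.8 ± 3.53 CPM in DMSO, 70.6 ± 19.97 CPM in PLX3397 and 56.9 ± 5.69 CPM in ZVAD-fmk. The transcription factor SRF read 1.21, 1.51 and 4.96 CPM in DMSO and 3.88, 9.34 and 3.81 CPM in PLX3397, where the third DMSO library lay above 2 of 3 PLX3397 libraries.

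Among 9 transporters, enzymes and kinases, the metalloreductase STEAP4, which reduces iron and copper, read 17.3, 17.6 and 17.9 CPM untreated, 189, 186 and 174 CPM in DMSO, 808, 949 and 1236 CPM in PLX3397 and 656, 563 and 549.6 CPM in ZVAD-fmk. No range touched the next. The creatine transporter SLC6A8 had a poke log2 ratio of only 1.04 but drug ratios of 2.36 and 2.17, with means of 37.1 ± 11.1 CPM in DMSO, 193 ± 27.4 CPM in PLX3397 and 169 ± 8.13 CPM in ZVAD-fmk. The kinase gene sgk2b had means of 18.5 ± 6.82, 56.9 ± 29.4 and 73.6 ± 8.63 CPM in those groups. The small GTPase arf4b, of the Arf family of membrane traffic, read 3.26, 3.11 and 5.52 CPM in DMSO, 3.51, 9.68 and 24.6 CPM in PLX3397 and 10.6, 7.1 and 7.91 CPM in ZVAD-fmk. The first PLX3397 library lay within the DMSO range and the third above every ZVAD-fmk library. The remaining genes were the lipid phosphatase PLPP2 (ENSDARG00000002231), the ether lipid enzyme AGPS, the methionine salvage enzyme MRI1, the magnesium transporter SLC41A1 and FAM83G, a scaffold for casein kinase 1.

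Of the 15 genes without a symbol of their own, ENSDARG00000101479 had the largest poke ratio, a log2 ratio of 6.52, si:dkey-97i18.5 the largest PLX3397 ratio and si:ch211-183d21.1 the largest ZVAD-fmk ratio. ENSDARG00000101479 read 1.82, 2.23 and 1.64 CPM untreated, 216, 220.3 and 221 CPM in DMSO, 781, 950.4 and 877 CPM in PLX3397 and 756, 703 and 698 CPM in ZVAD-fmk. The clone-named gene si:dkey-97i18.5 read 0.488, 0.175 and 0.302 CPM untreated, 12.8, 9.01 and 17 CPM in DMSO, 121, 185 and 173 CPM in PLX3397 and 63.7, 44.6 and 43.9 CPM in ZVAD-fmk. Its log2 ratio of 3.57 was the largest PLX3397 ratio of the 57 genes. In si:ch211-183d21.1, whose log2 ratios were 2.21 for PLX3397 and 2.41 for ZVAD-fmk, the means were 25.4 ± 3.07, 148 ± 26.3, 687 ± 231 and 789.6 ± 15.7 CPM in the same order of groups, and in si:dkey-34d22.1 they were 54.6 ± 13.1, 173 ± 9.22, 482 ± 164 and 412 ± 33.2 CPM. The genes si:dkey-267n13.1 and si:dkey-228a15.1 are neighbours in the gene order of the RefSeq annotation of GRCz12tu. They may therefore not be 2 independent observations, which was not tested. The roles of these genes were not stated in the sources used here.

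In counts over the 57 genes, all 3 DMSO libraries lay above all 3 untreated libraries for 55 genes, all PLX3397 libraries lay above all DMSO libraries for 49, and all ZVAD-fmk libraries did so for 54. The same held for 27.1%, 27.5% and 26.7% of all 21334 genes tested. The rule used these contrasts, so the counts are given as a description.

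**Figure D2:**
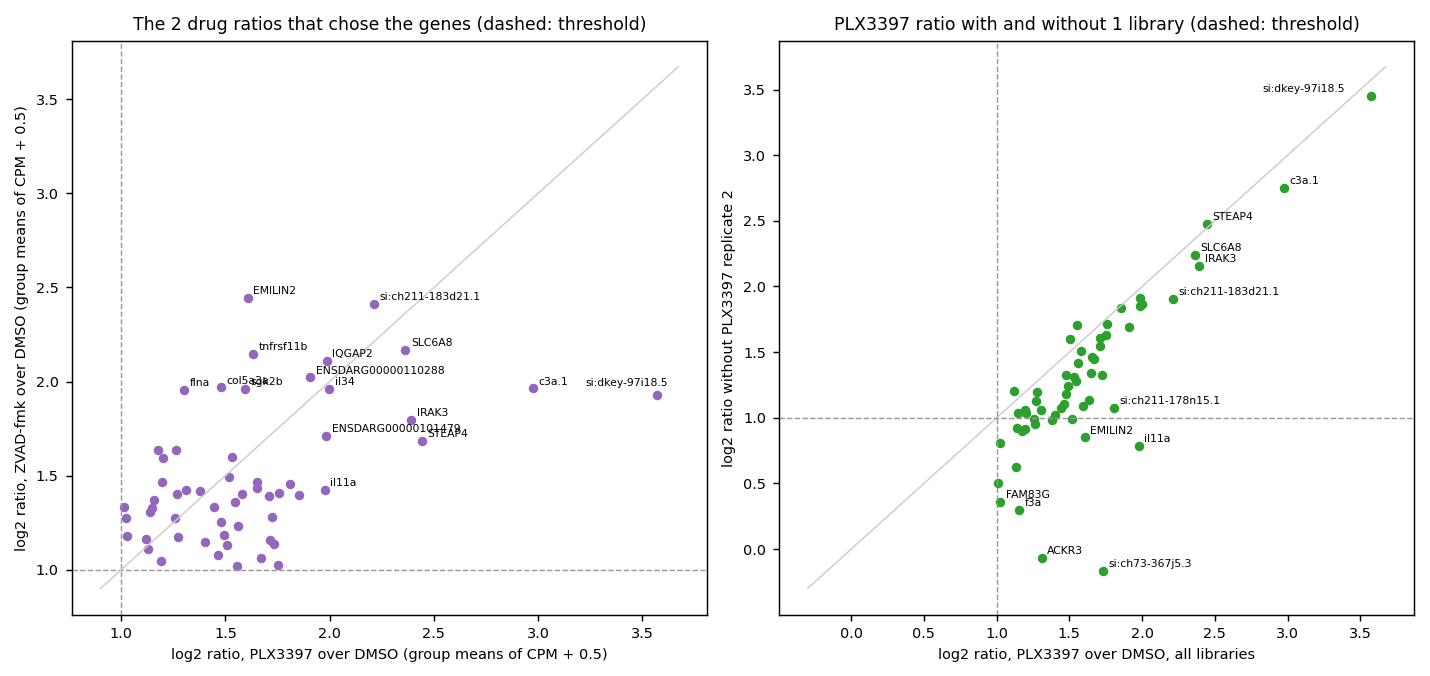
Left, the log2 ratio of PLX3397 over DMSO (x axis) against that of ZVAD-fmk over DMSO (y axis) for the 57 genes, with the threshold of 1 dashed and the line of equal ratios in grey. Right, the PLX3397 ratio with all libraries (x axis) against the ratio without PLX3397 replicate 2 (y axis); 16 genes drop below the threshold and si:ch73-367j5.3 and ACKR3 drop below 0.

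The PLX3397 ratios leaned on 1 library. PLX3397 replicate 2 was the highest of its group for 52 of the 57 genes and stood 2-fold or more above the mean of the other two for 12, among them il11a, f3a, ACKR3, tnfrsf11b, sgk2b, EMILIN2 and SRF. DMSO replicate 3 stood 2-fold or more above the other two for 6 genes (f3a, ACKR3, il11a, SRF, si:dkey-267n13.1 and si:ch73-367j5.3), and all 6 were among those 12. ZVAD-fmk replicate 1 was the highest of its group for 36 genes and for 5 of these 6. Without PLX3397 replicate 2, the median PLX3397 log2 ratio of the 57 genes was 1.19 instead of 1.55, 41 genes stayed at 1 or more, and those of ACKR3 and si:ch73-367j5.3 were -0.07 and -0.16 instead of 1.31 and 1.73. The ratio of f3a fell from 1.15 to 0.30, that of FAM83G from 1.03 to 0.36, that of SRF (ENSDARG00000102867) from 1.01 to 0.50 and that of il11a from 1.98 to 0.79. The ratio of EMILIN2 fell from 1.61 to 0.85, and that of tnfrsf11b from 1.63 to 1.14, which is still above the threshold. Without DMSO replicate 3, the poke ratio of il11a fell from 4.16 to 2.99, that of SRF from 1.32 to 0.61 and that of si:ch73-367j5.3 from 1.55 to 0.30. The drug ratios of the same 3 genes were then larger, for il11a 3.15 for PLX3397 and 2.60 for ZVAD-fmk. In this setting 52 genes stayed at a poke ratio of 1 or more, 55 at a PLX3397 ratio of 1 or more and 54 at a ZVAD-fmk ratio of 1 or more. Without all 4 libraries that stood apart, 46 genes stayed at a PLX3397 ratio of 1 or more, 54 at a ZVAD-fmk ratio of 1 or more and 53 at a poke ratio of 1 or more. The ligand il34, the complement gene c4b, the reductase STEAP4 and ENSDARG00000101479 were not among the 12.

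Markers of cells from outside the neural retina differed between the libraries of a group as well. The 29 genes of cornea, surface epithelium and fibroblasts summed to 626, 1282 and 797 CPM in PLX3397 and to 865, 887 and 1360 CPM in DMSO, so PLX3397 replicate 2 and DMSO replicate 3 were the highest of their groups. The 7 neutrophil genes summed to 740, 1229 and 813 CPM in PLX3397 and to 710, 710 and 944 CPM in DMSO, with the same 2 libraries highest. In ZVAD-fmk the sums were 1127 to 1152 CPM and 1050 to 1105 CPM. Of the 29 genes, 9 were at 1 CPM or more and 8 at 0 in PLX3397, against 10 and 6 in DMSO. Of the 7 neutrophil genes, 3 were at 1 CPM or more in PLX3397, against 6 in DMSO and 5 in ZVAD-fmk, and 0 were at 0. Few genes therefore carried the neutrophil sum in PLX3397, and it does not stand for the whole list. The part of these markers in the ratios of the 57 genes was not tested.

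The 2 drug groups cannot be compared independently of the choice of the genes, since each gene had to be high in the same 6 drug libraries, which limits how far the groups can differ. The values that follow are a description. With edgeR's quasi-likelihood test over all 21334 genes (two-sided, Benjamini-Hochberg adjustment, called at an adjusted p under 0.05), 2 of the 57 genes were higher in PLX3397 than in ZVAD-fmk and 0 were lower, where 3.43% and 4.81% of all genes were called higher and lower. At an unadjusted p under 0.05 there were 5 higher and 1 lower, and DESeq2 called 1 lower. The 2 genes were si:dkey-97i18.5, with a log2 fold change of 1.60 ± 0.28 (SE), and STEAP4, with 0.70 ± 0.16. The call of si:dkey-97i18.5 ended without ZVAD-fmk replicate 2, and that of STEAP4 without ZVAD-fmk replicates 2 or 3 or PLX3397 replicate 3. The median log2 fold change of PLX3397 over ZVAD-fmk was 0.09 over the 57 genes. Ranges overlapped for 44 of the 57 genes, all PLX3397 libraries lay higher for 11 (17.6% of all genes) and lower for 2 (16% of all genes). The number called depended on the libraries, since 9 genes were called lower without PLX3397 replicate 2. Without the 4 libraries that stood apart, 7 were called higher and 19 lower. The shares of all genes called in these reduced fits are not given here.

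Markers of other cell types differed between the groups of the needle poke experiment. From untreated retina to DMSO, the neutrophil genes went from 3.20 to 6.70 CPM in sum to 710 to 944 CPM, and the genes of cornea, surface epithelium and fibroblasts from 365 to 457 CPM to 865 to 1360 CPM. Of the 7 neutrophil genes, 1 was at 1 CPM or more in untreated retina and 6 were in DMSO. Of the 29 genes of cornea, surface epithelium and fibroblasts, 9 were in untreated retina and 10 in DMSO. The microglia and macrophage genes went from 8998 to 11870 CPM to 14770 to 16520 CPM, and the Müller glia genes from 32110 to 43520 CPM to 27800 to 28590 CPM. The summed level of 23 genes of vessels and mural cells was 1045 to 1153 CPM in DMSO, 1952 to 2622 CPM in PLX3397 and 2125 to 2306 CPM in ZVAD-fmk. That of 22 rod genes was 6035 to 6575 CPM in DMSO, against 1482 to 3045 CPM in PLX3397 and 1917 to 2679 CPM in ZVAD-fmk, and that of 22 cone genes was 12470 to 18310, 6681 to 9638 and 4898 to 7450 CPM. The list of 23 microglia and macrophage genes, all of them at 1 CPM or more in DMSO and 19 in PLX3397, summed to 14770 to 16520 CPM in DMSO, 11360 to 15270 CPM in PLX3397 and 16690 to 17990 CPM in ZVAD-fmk. In the NMDA experiment, uninjured csf1ra mutants had a higher sum of this list than the wild type, with 7 against 14 genes at 1 CPM or more. The sum therefore need not follow most of the list, and it is no measure of the number of these cells. The 27 Müller glia genes summed to 27800 to 28590 CPM in DMSO, 23150 to 28750 CPM in PLX3397 and 29380 to 31000 CPM in ZVAD-fmk. Both this list and that of microglia and macrophages name apoeb, so the sums of the 2 lists are not independent. The Müller glia and erythrocyte lists both name cahz, and the microglia and neutrophil lists both name csf3r. Those sums may therefore not be independent either. The 36 genes of inner retinal neurons summed to 4382 to 6159 CPM in DMSO, 3259 to 6356 CPM in PLX3397 and 3589 to 4560 CPM in ZVAD-fmk. Those of 12 oligodendrocyte genes were 181 to 229, 116 to 153 and 154 to 164 CPM, and of 21 pigment epithelium genes 505 to 553, 389 to 436 and 500.3 to 553 CPM. The 12 erythrocyte genes summed to 1424 to 1500, 1350 to 1584 and 1687 to 1750 CPM, and the 21 lens genes to 41.7 to 46.9, 26.9 to 33.3 and 46.5 to 47.6 CPM. None of the 57 genes is on these lists. At most 1 gene of the lists of vessels, rods, cones, microglia, Müller glia and inner retinal neurons was at 0 in a group, and the part of these differences in the levels of the 57 genes was not tested. The proliferation gene mki67 stood at 6.3 ± 0.856 CPM untreated, 214 ± 8.04 CPM in DMSO, 28.4 ± 2.85 CPM in PLX3397 and 23.2 ± 1.61 CPM in ZVAD-fmk. It was higher after the poke, as the 57 genes were, and only its step from DMSO to either drug was opposite to theirs.

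NMDA, an excitotoxin that kills neurons of the inner retina when injected into the eye, is an injury of another kind and was given to fish without drugs. In the wild type, 52 of the 55 genes that could be tested were higher after NMDA than in uninjured retina and 0 were lower, by edgeR's quasi-likelihood test over 20254 genes, of which 35.6% were called higher and 34.3% lower. At an unadjusted p under 0.05, 53 were higher and 0 lower, and DESeq2 called 51 higher and 0 lower. The median log2 fold change was 2.42, with values from 0.11 (ACKR3) to 8.21 (dkk1a) where the uninjured group held counts. All 3 NMDA libraries lay above all 3 uninjured libraries for 52 of the 57 genes, against 39.1% of all genes, and 38.3% of all genes lay lower without overlap. The p-values measure the spread between libraries only, since the labels do not say whether libraries came from separate fish. Of the other poke-raised genes, 1372 of 1415 were called higher, with a median of 2.30. Cell markers moved in the same libraries. From uninjured to NMDA retina of the wild type, the neutrophil genes went from 5.14 to 5.96 CPM in sum to 2981 to 5010 CPM, and the genes of cornea, surface epithelium and fibroblasts from 358 to 457 CPM to 1630 to 1664 CPM. Of the 7 neutrophil genes, 3 were at 1 CPM or more in uninjured and 3 in NMDA retina. Of the 29 genes of cornea, surface epithelium and fibroblasts, 9 were in uninjured and 7 in NMDA retina. Few genes of each list therefore carried these sums. The Müller glia genes went from 23300 to 25340 CPM to 9390 to 14740 CPM, and the inner retinal neuron genes from 8215 to 8649 CPM to 2771 to 3042 CPM. Their part in the levels of the 57 genes was not tested. The 2 genes not tested were si:dkey-267n13.1, at 1 CPM or less in every library, and ENSDARG00000099348, at 0 counts in all 18 libraries.

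All 4 ligands rose after NMDA in the wild type. The levels of il11a went from 1.31, 0.739 and 1.35 CPM to 10.9, 15.6 and 15.4 CPM, a log2 fold change of 3.64 ± 0.56 (SE, adjusted p = 1.81e-05). Those of il34 went from 3.98, 3.11 and 3.6 CPM to 27.3, 19.3 and 21.8 CPM, a log2 fold change of 2.69 ± 0.27 (SE, adjusted p = 8.93e-08). Neither gene had overlapping groups, and cxcl18b and kitlgb rose by 3.91 and 2.73 on the log2 scale. The Wnt inhibitor dkk1a rose from 0.438, 0.185 and 0.0774 CPM to 95.2, 53.7 and 53.7 CPM and tnfrsf11b from 1.4, 1.59 and 1.32 CPM to 225, 116 and 211 CPM. Complement c3a.1 had 0 counts in all 9 uninjured libraries, and against 3 counts over the group its level after NMDA was at least 46.7-fold higher in the wild type, 22.4-fold in csf1ra mutants and 44.5-fold in csf1rb mutants.

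The 3 genes not called in the wild type were the scavenger receptor ACKR3 (log2 fold change 0.11 ± 0.31, adjusted p = 0.763), the collagen chain col5a3a (0.38 ± 0.18, adjusted p = 0.069) and the creatine transporter SLC6A8 (0.40 ± 0.20, adjusted p = 0.0832). All 3 had uninjured levels in this experiment above those of the untreated retinas of the needle poke experiment, with SLC6A8 at 69.2 ± 13.3 CPM against 17.8 ± 4.52 CPM, but the 2 experiments are separate tables and this was not tested. The calls of ZNFX1 (0.66 ± 0.29, adjusted p = 0.0499), mtcl1 (0.64 ± 0.23, adjusted p = 0.0177) and SRF (0.90 ± 0.32, adjusted p = 0.0174) ended under at least 1 alternative each, for mtcl1 without uninjured replicate 2 or NMDA replicate 3 and for SRF without uninjured replicates 2 or 3 or NMDA replicate 3. The call of ZNFX1 ended under 7 of 10 alternatives, namely DESeq2, the size factors of DESeq2 in edgeR, no filter on low counts, and leaving out uninjured replicates 1 or 2 or NMDA replicates 1 or 2.

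In csf1ra mutants, 54 of 55 genes were higher after NMDA and 0 lower, both at an adjusted and at an unadjusted p under 0.05 and by DESeq2, against 36.4% of all genes, with a median log2 fold change of 2.74. The gene not called was mtcl1, at 0.32 ± 0.23 (SE, adjusted p = 0.217), the call of NOTCH1 ended without csf1ra uninjured replicate 5, and that of ENSDARG00000117758 ended under 6 of 10 alternatives. In csf1rb mutants all 55 were higher, against 37% of all genes, with a median of 2.62. In all 3 genotypes 51 genes were higher, a count in which each genotype has its own uninjured libraries. The share of all genes higher in all 3 genotypes is not given here, so this count is a description. With each genotype taken alone, 97.1% of the other poke-raised genes were higher in csf1ra mutants and 97.0% in csf1rb mutants.

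**Figure D3:**
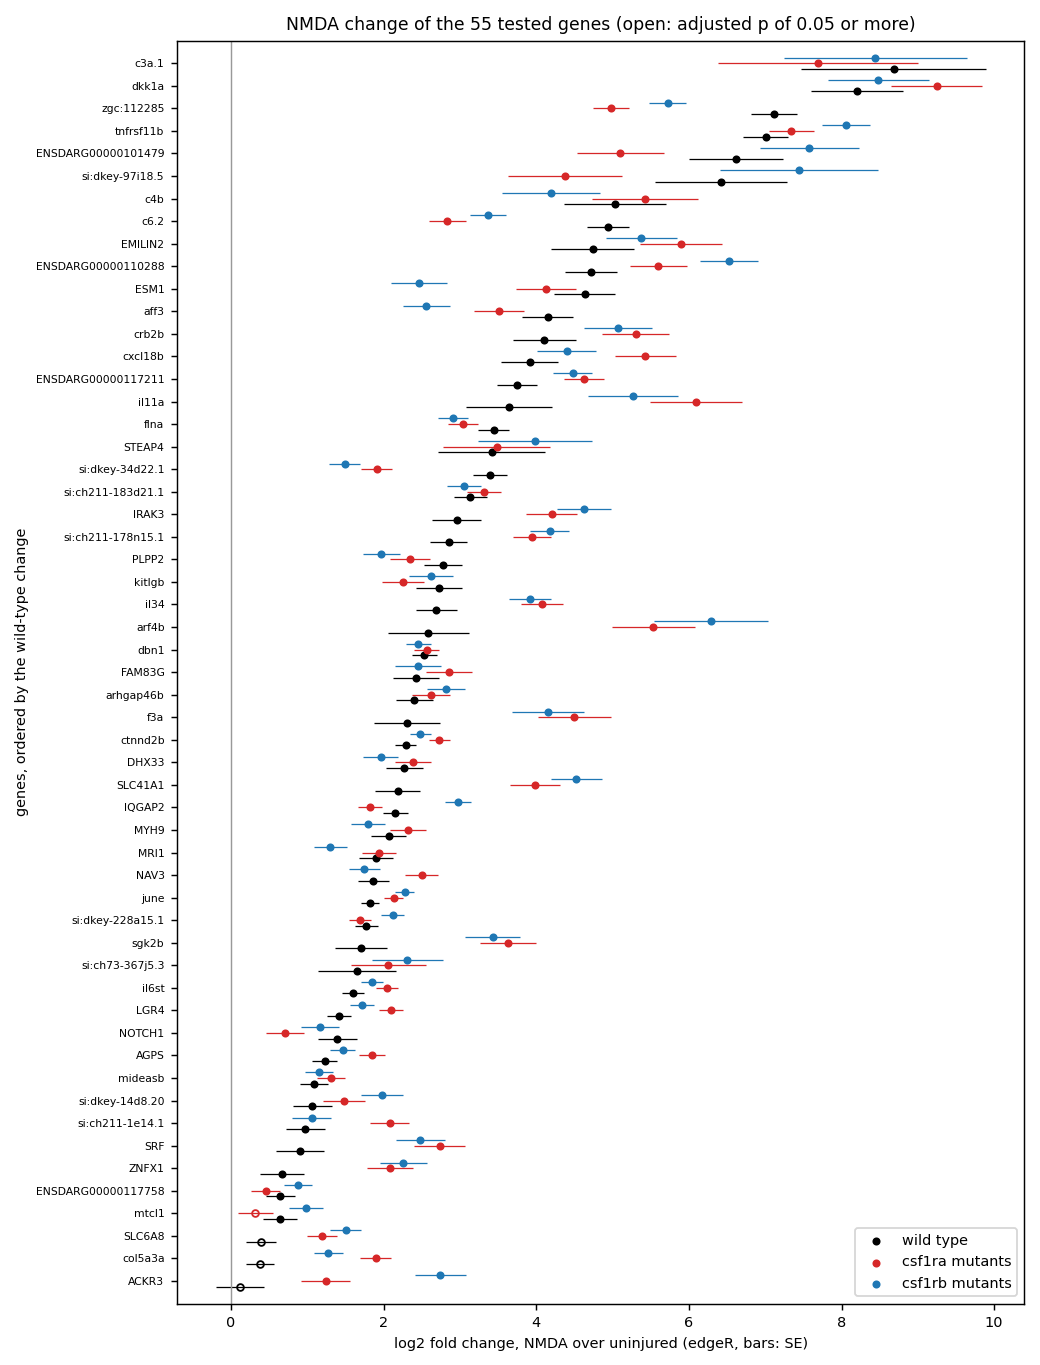
Log2 fold change of NMDA over uninjured retina (x axis; points are the fit's estimates and bars their SE) for the 55 genes tested, ordered by the change in the wild type, in wild type (black), csf1ra mutants (red) and csf1rb mutants (blue). Open points were not called; these are ACKR3, col5a3a and SLC6A8 in the wild type and mtcl1 in csf1ra mutants. The fitted value of c3a.1 depends on a group at 0 counts and is no estimate of its fold.

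After NMDA, 12 of the 55 genes were higher in csf1ra mutants than in the wild type and 2 were lower, against 9.24% and 13.2% of all genes. The share of 21.8% called higher compares with 15.6% of the other poke-raised genes, a difference that was not tested. All 3 mutant libraries lay above all 3 wild-type libraries for 15 of the 57 genes and below them for 7, against 14.4% and 28.9% of all genes. All 4 ligands were among the 12. The level of il11a was 59.9, 35.3 and 48.3 CPM in csf1ra mutants against 10.9, 15.6 and 15.4 CPM in the wild type, a log2 fold change of 1.87 ± 0.46 (SE, adjusted p = 0.00712). The level of il34 was 56.4, 46 and 67.6 CPM against 27.3, 19.3 and 21.8 CPM, a log2 fold change of 1.42 ± 0.24 (SE, adjusted p = 0.000499). In both cases the lowest mutant library lay above the highest wild-type library. The chemokine cxcl18b, at 2104, 2079 and 2187 CPM against 1202, 1168 and 1062 CPM, differed by 1.00 ± 0.34 (SE, adjusted p = 0.0403), and kitlgb by 0.79 ± 0.26 (SE, adjusted p = 0.0335). The call of cxcl18b ended when any 1 of the 6 libraries was left out and with no filter on low counts, and that of kitlgb ended without wild-type replicates 2 or 3 or csf1ra replicates 1 or 3.

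Tissue factor f3a was at 989.8, 796 and 885 CPM in csf1ra mutants after NMDA against 289, 302 and 334 CPM in the wild type, a log2 fold change of 1.64 ± 0.42 (SE, adjusted p = 0.0103). The gp130 gene il6st was at 264, 216 and 268 CPM against 178, 179.8 and 187 CPM, a log2 fold change of 0.56 ± 0.14 (SE, adjusted p = 0.00873). The largest difference was that of arf4b, at 18.7, 15.7 and 10.4 CPM against 4.92, 1.87 and 2.73 CPM, a log2 fold change of 2.35 ± 0.42 (SE, adjusted p = 0.000869). All 3 genes had non-overlapping groups. The kinase gene sgk2b differed by 1.27 ± 0.33 (SE, adjusted p = 0.00948) and dkk1a by 1.15 ± 0.36 (SE, adjusted p = 0.0307), with dkk1a at 181, 123 and 113 CPM against 95.2, 53.7 and 53.7 CPM. IRAK3, NAV3 and ENSDARG00000117211 were higher by 0.88, 0.61 and 0.68 on the log2 scale. The lipid phosphatase PLPP2 was lower, at 7.4, 6.68 and 6.83 CPM against 13.3, 15.3 and 17.1 CPM, a log2 fold change of -1.02 ± 0.23 (SE, adjusted p = 0.00419), and ENSDARG00000117758 was lower by a log2 fold change of -0.59. The calls of il11a, il34, f3a, arf4b, il6st and PLPP2 held under all 10 alternatives tried, and the other 8 each ended under at least 1. Of these, sgk2b ended without wild-type replicate 2, dkk1a by DESeq2, with no filter on low counts and without wild-type replicates 2 or 3 or csf1ra replicates 1 or 2, and IRAK3 without any wild-type library or without csf1ra replicate 3. Leaving out wild-type NMDA replicate 2 gave the fewest higher calls, 5 instead of 12.

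In csf1rb mutants, set against the same 3 wild-type libraries, 11 of the 55 genes were higher after NMDA and 5 lower, against 11.9% and 11.4% of all genes. Of the other poke-raised genes, 9.47% were higher and 9.19% lower. All 3 mutant libraries lay above the wild type for 15 of the 57 genes and below for 7, against 16.4% and 28% of all genes. The largest differences upward were in sgk2b and EMILIN2. The level of sgk2b was 98.1, 65.2 and 79.6 CPM against 32.8, 18.1 and 26 CPM, a log2 fold change of 1.76 ± 0.33 (SE, adjusted p = 0.000943). The level of EMILIN2 was 16.9, 12 and 21.2 CPM against 8.1, 3.21 and 4.78 CPM, a log2 fold change of 1.75 ± 0.36 (SE, adjusted p = 0.00189). Neither overlapped with the wild type. Of the ligands only il34 was called, at 34.1, 30.4 and 43.8 CPM and a log2 fold change of 0.77 ± 0.24 (SE, adjusted p = 0.0247); il11a at 1.12, kitlgb at 0.16 and cxcl18b at -0.07 were not. The call of il34 ended without wild-type replicates 2 or 3 or csf1rb replicate 4, and that of il6st (0.55 ± 0.14 (SE, adjusted p = 0.00958)) without csf1rb replicate 4. Complement c6.2 was at 57.8, 62.3 and 45.5 CPM against 23.9, 40.2 and 40.9 CPM, a log2 fold change of 0.74 ± 0.21 (SE, adjusted p = 0.0179), which ended without wild-type replicate 1 or csf1rb replicates 1 or 2.

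Lower in csf1rb mutants after NMDA were STEAP4, ESM1, aff3, arhgap46b and IQGAP2. The endothelial proteoglycan gene ESM1 read 11, 14.6 and 12.8 CPM in the mutants against 51.1, 56.2 and 32.2 CPM, a log2 fold change of -1.77 ± 0.33 (SE, adjusted p = 0.00104), with no overlap. STEAP4 read 48.4, 53.5 and 45.3 CPM against 58.2, 236 and 579 CPM, a log2 fold change of -2.49 ± 0.67 (SE, adjusted p = 0.0122). The wild-type libraries spread widely, with replicate 1 close to the mutants, and the call ended without wild-type replicate 3 and with the replicate number as a block. The calls of sgk2b, EMILIN2 and ESM1 held under all 10 alternatives tried, and the other 13 each ended under at least 1. Leaving out wild-type NMDA replicate 2 gave 4 higher calls instead of 11, and leaving out wild-type NMDA replicate 3 gave 1 lower call instead of 5. Higher in both mutants were 4 genes, il34, il6st, sgk2b and ENSDARG00000117211, in comparisons that share the wild-type libraries. The share of all genes higher in both mutants is not given here, so this count is a description.

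**Figure D4:**
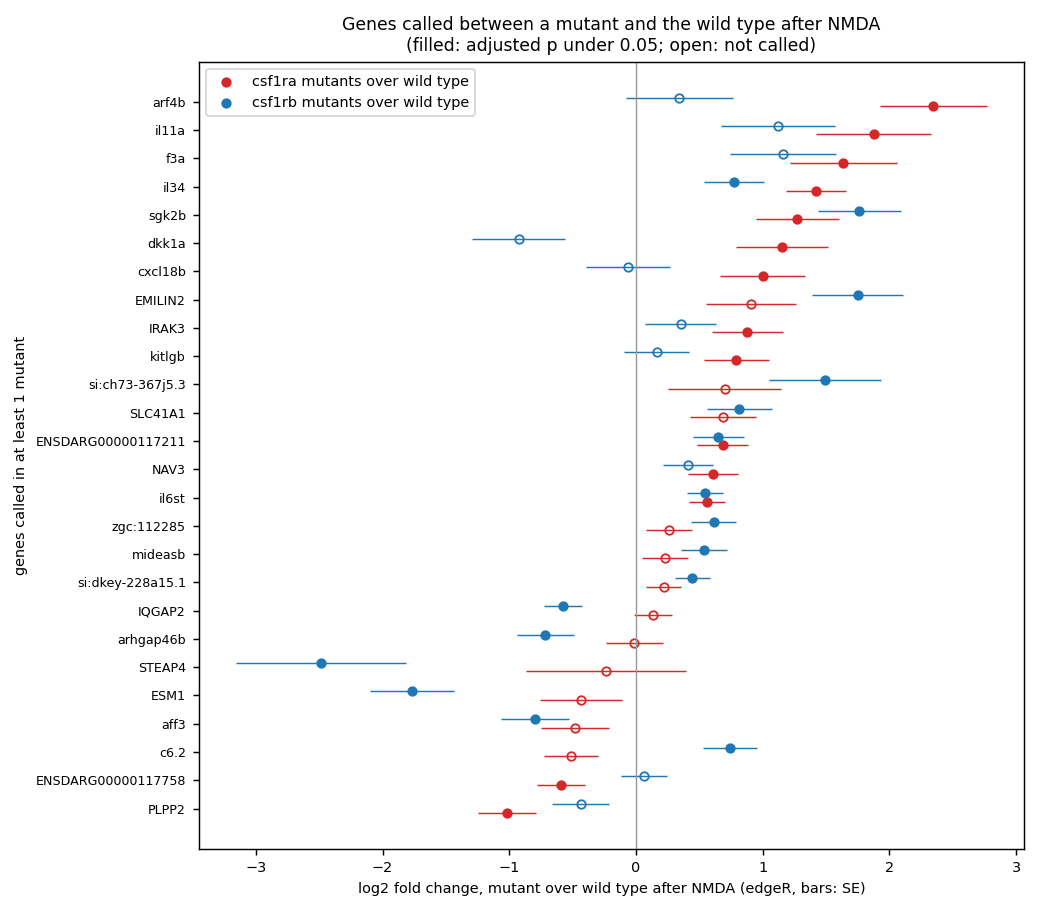
Log2 fold change of csf1ra mutants (red) and csf1rb mutants (blue) over the wild type after NMDA (x axis; bars are SE) for the 26 genes called in at least 1 of the 2 comparisons, which share the wild-type libraries. Filled points were called and open points were not; arf4b, il11a, f3a and il34 lead the csf1ra differences, and STEAP4 and ESM1 lie lowest for csf1rb.

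The wild-type libraries after NMDA were themselves uneven for some genes. In replicates 1, 2 and 3, c4b read 90.7, 174 and 297 CPM, ENSDARG00000101479 read 113, 295 and 498 CPM and si:dkey-97i18.5 read 3.25, 11.4 and 30.03 CPM. In csf1ra mutants the same 3 genes and STEAP4 also had their lowest value in replicate 1, with c4b at 50.2, 111 and 166 CPM and STEAP4 at 39.4, 274 and 382 CPM. In csf1rb mutants after NMDA, STEAP4 was even, as listed above, and c4b was at 95.3, 112 and 72.9 CPM. None of c4b, ENSDARG00000101479 and si:dkey-97i18.5 was called between a mutant and the wild type.

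Markers of other cells differed between the genotypes after NMDA. The 22 rod genes summed to 4473 to 7218 CPM in the wild type, 1692 to 2659 CPM in csf1ra mutants and 962 to 2120 CPM in csf1rb mutants. The 36 genes of inner retinal neurons summed to 2771 to 3042 CPM, 1252 to 1925 CPM and 1422 to 2276 CPM. The 23 genes of vessels and mural cells summed to 1298 to 1521 CPM, 1395 to 1595 CPM and 1703 to 1917 CPM, and the 23 microglia and macrophage genes to 4027 to 6842 CPM, 4293 to 4881 CPM and 8019 to 9439 CPM, with 19, 12 and 9 of the 23 at 1 CPM or more. The 27 Müller glia genes summed to 9390 to 14740 CPM, 10090 to 11950 CPM and 19460 to 20020 CPM. On the microglia and macrophage list the csf1rb mutants had the highest sum and the fewest genes at 1 CPM or more. The sum therefore does not follow most of the list. In uninjured retina this list summed to 6072 to 6741 CPM in the wild type, with 14 genes at 1 CPM or more. It summed to 7839 to 9305 CPM in uninjured csf1ra mutants, with 7. The microglia and macrophage list and the Müller glia list both name apoeb, so their sums are not independent, and its part in them was not tested. At most 1 gene of these lists was at 0 in a group, and their part in the differences between genotypes was not tested.

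**Figure D5:**
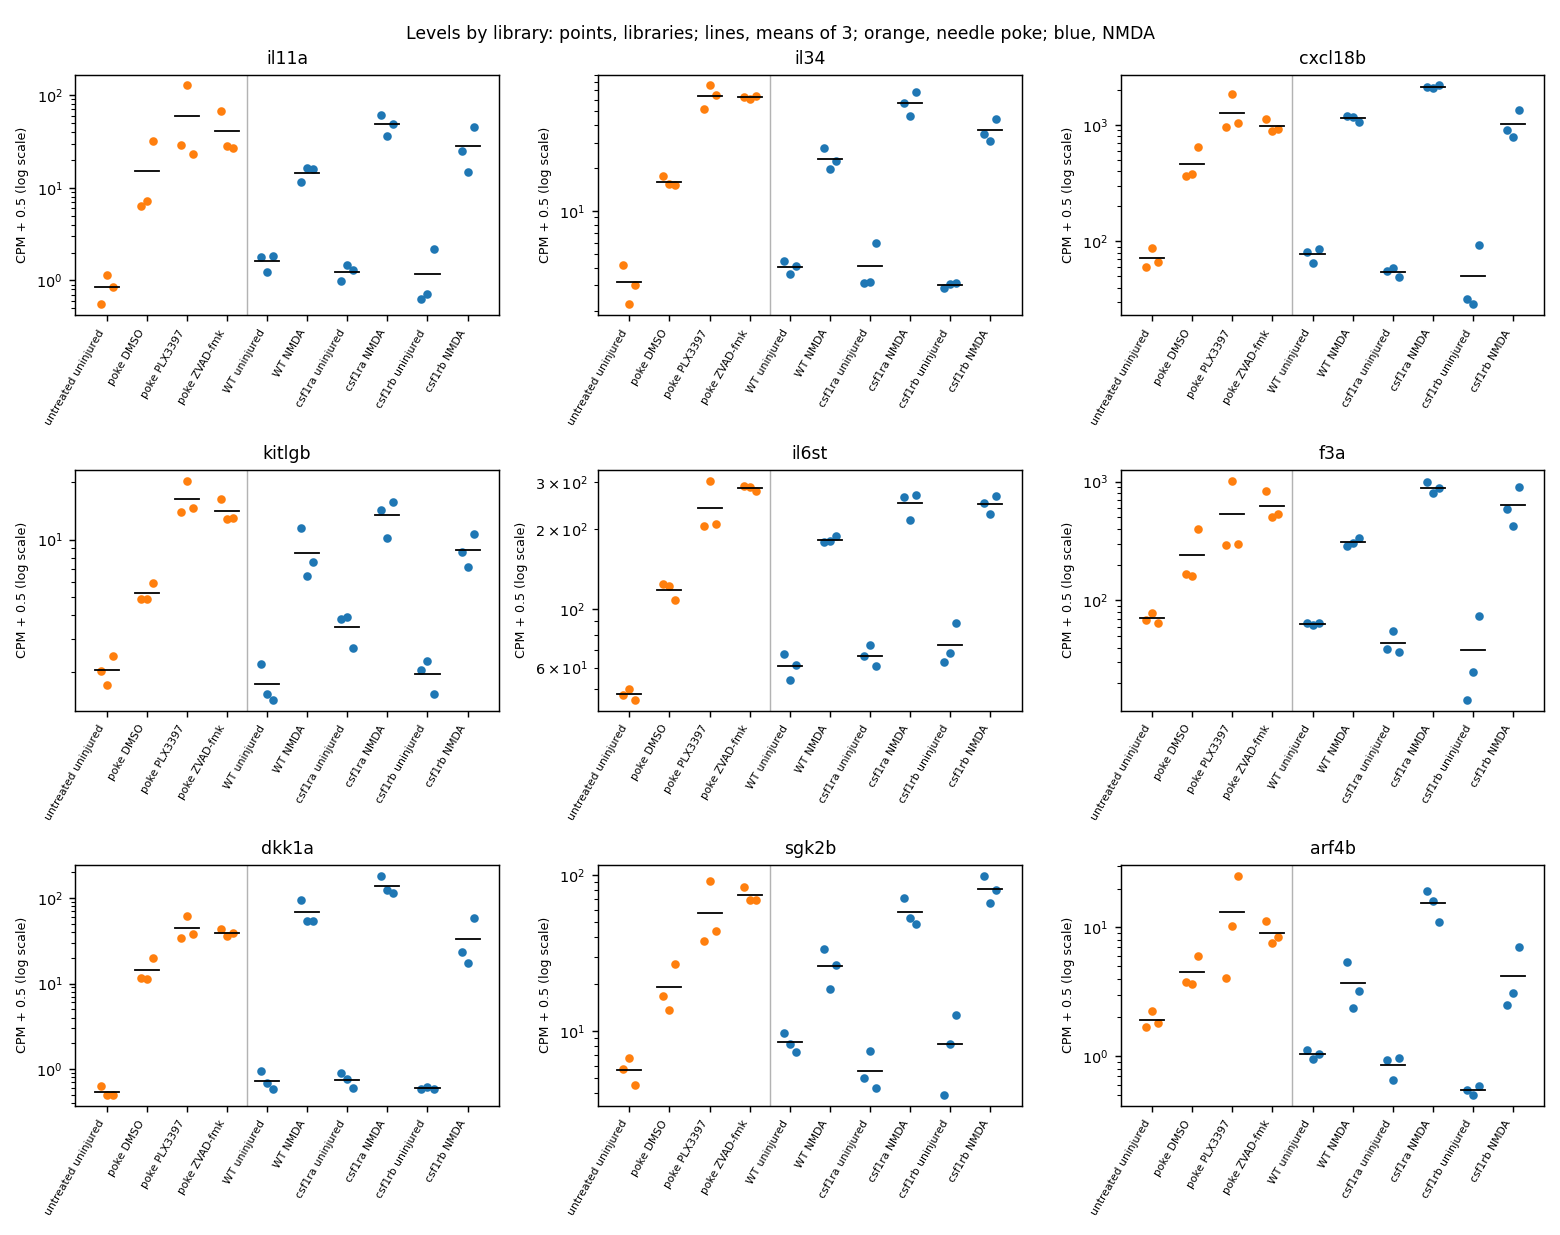
CPM plus 0.5 on a log axis for 9 of the genes in all 30 libraries; points are libraries, lines are means of 3, orange is the needle poke experiment and blue the NMDA experiment. For il34 and il6st the drug libraries lie above all DMSO libraries, and for il11a, il34, f3a, il6st and arf4b the csf1ra mutants after NMDA lie above the wild type after NMDA.

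In uninjured retina, csf1ra mutants had 5 of 55 genes higher than the wild type and 7 lower, against 7.94% and 6.74% of all genes. Complement c6.2 was higher, at 2.96, 2.58 and 4.83 CPM against 1.23, 0.924 and 1.32 CPM, a log2 fold change of 1.59 ± 0.29 (SE, adjusted p = 0.00133), together with zgc:112285 (2.4), si:dkey-34d22.1 (1.43), kitlgb (1.27) and NOTCH1 (0.95). The value of zgc:112285 rests on a wild type near the floor, with 3, 5 and 4 counts against 14, 24 and 29 in the mutants. The call of kitlgb ended without wild-type uninjured replicate 3 and with the replicate number as a block, and that of NOTCH1 without wild-type replicates 1 or 2 or csf1ra replicate 4. The collagen gene col5a3a was lower, at 1.18, 1.12 and 1.04 CPM against 3.5, 4.33 and 4.26 CPM, a log2 fold change of -1.87 ± 0.20 (SE, adjusted p = 1.31e-05), and LGR4 was lower with -0.80 ± 0.16 (SE, adjusted p = 0.0027). The calls of c6.2, zgc:112285, si:dkey-34d22.1, col5a3a and LGR4 held under all 10 alternatives, and the count of lower genes ran from 2 without wild-type uninjured replicate 3 to 14 without csf1ra uninjured replicate 4.

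In uninjured csf1rb mutants, 7 of 55 genes were higher and 14 lower than in the wild type, against 14.5% and 12.4% of all genes. Complement c6.2 was again higher, at 5.76, 5.84 and 5.25 CPM and a log2 fold change of 2.31 ± 0.28 (SE, adjusted p = 1.62e-05), as were si:dkey-34d22.1 (1.86) and zgc:112285 (2.01). STEAP4 was lower, at 2.75, 2.22 and 4.61 CPM against 27.9, 25 and 30.1 CPM, a log2 fold change of -3.05 ± 0.73 (SE, adjusted p = 0.00518). ACKR3 was lower as well, at 6.19, 6.92 and 15.8 CPM against 35.2, 36.7 and 36.9 CPM, a log2 fold change of -1.85 ± 0.33 (SE, adjusted p = 0.000562). No library of the mutants overlapped with the wild type in these genes. Further lower genes included arf4b, SLC41A1, IQGAP2 and crb2b, with log2 fold changes of -3.36, -1.52, -1.39 and -1.46, of which arf4b and crb2b lost the call without csf1rb uninjured replicate 2. The value of arf4b lies near the floor, with 1, 0 and 3 counts in the mutants against 14, 12 and 14 in the wild type. That of zgc:112285 is also near it, with 12, 19 and 24 counts against 3, 5 and 4 in the wild type. The third uninjured csf1rb library was 2-fold or more above the other two for 10 of the 57 genes, among them il11a at 0.129, 0.222 and 1.7 CPM and f3a at 14.1, 24.4 and 73.8 CPM.

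Whether the NMDA response itself differed between genotypes was tested as an interaction. In csf1ra mutants the log2 response was larger than in the wild type for 7 genes and smaller for 3, against 2.56% and 3.27% of all genes, and in csf1rb mutants it was larger for 12 and smaller for 4, against 4.1% and 4.07%. For il34 the response was larger by 1.38 ± 0.36 (SE, adjusted p = 0.0333) in csf1ra mutants and by 1.23 ± 0.37 (SE, adjusted p = 0.0492) in csf1rb mutants, calls that ended under 9 and 12 of the 16 alternatives. For c6.2, whose uninjured level was already higher in both mutants, the response was smaller, with differences of -2.11 ± 0.36 (SE, adjusted p = 0.00308) and -1.57 ± 0.35 (SE, adjusted p = 0.0115), calls that held under all 16. For ACKR3 in csf1rb mutants it was larger by 2.63 ± 0.45 (SE, adjusted p = 0.00228), with levels of 60.9, 39.8 and 84.4 CPM after NMDA. The interaction of il11a was not called in either mutant, at 2.45 ± 0.84 (SE, adjusted p = 0.0933) for csf1ra and 1.62 ± 0.82 (SE, adjusted p = 0.256) for csf1rb.

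Other genes of the pathways that hold members were taken from lists chosen with earlier results of these data known. On the list of inflammatory cytokines and NF-kB, which holds il11a, il34 and cxcl18b, 22 other genes were tested after the poke, of which the 12 called genes all rose against untreated retina, where 18.2% of all genes rose and 13.4% fell. In PLX3397, 4 of the 22 were higher than in DMSO and 4 lower, where 16.5% and 17.7% of all genes were called, and in ZVAD-fmk 4 were higher and 1 lower, where 9.7% and 8.96% were called. The chemokine ccl34b.1 was lower in both, with log2 fold changes of -6.84 and -4.16, and nfkb1, a subunit of NF-kB, was higher in both, with 2.05 and 1.62. After NMDA, 15 of 20 rose and 4 fell in the wild type, where 35.6% and 34.3% of all genes were called. Against the wild type after NMDA, 10 were higher and 4 lower in csf1ra mutants, where 9.24% and 13.2% of all genes were called, and 7 higher and 5 lower in csf1rb mutants, where 11.9% and 11.4% were called.

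On the list of JAK-STAT3 signalling, the route downstream of il6st, 18 other genes were tested. After the poke 4 rose and 2 fell, shares near the 18.2% and 13.4% of all genes. In PLX3397 5 were higher and 1 lower than in DMSO, where 16.5% and 17.7% of all genes were called, and in ZVAD-fmk the 4 called genes were higher, where 9.7% of all genes were called higher. The receptor gene lifra, which pairs with gp130, was higher by 1.16 and 1.14 on the log2 scale under the 2 drugs, and il11ra, the receptor of interleukin 11 (named here after its values were seen), by 0.81 and 0.74. After NMDA 10 of 18 rose and 2 fell in the wild type, where 35.6% and 34.3% of all genes were called. Of 24 other genes on the complement and acute phase list, 9 rose and 2 fell after the poke, where 18.2% and 13.4% of all genes were called. The 24 include the gene that passed every threshold of the rule but is not among the 57. Their counts after the poke and under the drugs are therefore not independent of the rule. In PLX3397, 6 were higher and 4 lower, where 16.5% and 17.7% were called, and in ZVAD-fmk 4 were higher and 2 lower, where 9.7% and 8.96% were called. There c1qa, a gene of the first complement component that microglia express, was lower by log2 fold changes of -3.34 and -2.50, and tfa (transferrin) was higher by 5.45 and 3.51.

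On the list of Wnt genes and inhibitors, which holds dkk1a, 23 other genes were tested, of which 4 rose and 4 fell after the poke, near the 18.2% and 13.4% of all genes. The called genes under the drugs were higher, 2 in PLX3397, a share below the 16.5% of all genes, and 6 in ZVAD-fmk, where 9.7% of all genes were called higher. On the list of retinal progenitor and neurogenic genes, which holds NOTCH1 (ENSDARG00000052094), 15 of 28 others rose and 5 fell after the poke, where 18.2% and 13.4% of all genes were called. In PLX3397, 3 of these 28 were higher and 11 lower than in DMSO, where 16.5% and 17.7% were called, and in ZVAD-fmk 2 were higher and 9 lower, where 9.7% and 8.96% were called, led by OLIG2 with log2 fold changes of -3.87 and -3.23. The other 16 lists of processes and all 12 lists of cell type markers hold none of the 57 genes. The lists hold chosen symbols only, and june, col5a3a and kitlgb are on none of them. A list without members does not show that its process is absent from the 57 genes.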

How the data were processed

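The RNA was polyA-selected from whole adult retinas, and the authors deposited 2 tables of expected counts per gene, 1 per experiment; the tools named are RSEM 1.3.3 and STAR 2.7.8a, with FastQC 0.11.8 and cutadapt 4.8 besides, and the build GRCz11, per the submitters' processing notes. The deposited expected counts were whole numbers. Groups came from the sample labels, and 9 columns of the needle poke table that match no sample were not used. CPM values were computed over the 32520 Ensembl rows, leaving out 4 reporter rows. The tests used edgeR 4.0.16 (TMM scaling, low-count filter by group, robust quasi-likelihood fit of all groups of an experiment, Benjamini-Hochberg adjustment over all genes, called at an adjusted p under 0.05) in R 4.3.3 with limma 3.58.1, on 21334 and 20254 genes. CPM values are unscaled, and relative to TMM they add 0.14 (poke), 0.15 (PLX3397) and 0.098 (ZVAD-fmk) to the log2 ratios. After NMDA they add -0.11 to csf1ra mutants over the wild type and -0.094 to csf1rb mutants over the wild type. To NMDA over uninjured retina they add -0.014 in the wild type, -0.13 in csf1ra mutants and -0.078 in csf1rb mutants. Counts of groups that do not overlap rest on unscaled CPM. Alternatives were DESeq2 1.42.0 and its size factors, no filter, the replicate number as a block, other forms of the selection rule and leaving out each library. Tables were made with Python 3.11.15 and pandas 2.3.3 and figures with matplotlib 3.10.9, and the fits were tested on simulated data.

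The genes and the pathway and marker lists were chosen with earlier results of these data known. Genes named are those with the highest drug levels, the largest smaller drug ratio, the largest called differences in each comparison, those at the thresholds, and those with a known role. Of the 57 genes, 52 had a symbol in the names table and 43 matched the RefSeq table (GRCz12tu), all 43 as protein coding. Replicates of 1 group differed by more than sampling noise, with a lowest chi-square per degree of freedom of 7.73. Promoter and protein sequences were not used here.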

Additional observations from a re-analysis of the deposited data

Results flagged for a closer look

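The values below are differences between the NMDA responses of a mutant and of the wild type (log2, mutant response minus wild-type response) that passed the interaction test of edgeR at an adjusted p under 0.05. Both mutants are set against the same wild-type libraries. The uninjured level of the mutant enters each value, so a larger response can accompany a lower uninjured level.

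In csf1ra mutants the response was larger for arf4b (2.95, adjusted p = 0.039), f3a (2.19, adjusted p = 0.038), sgk2b (1.93, adjusted p = 0.026), SRF (1.84, adjusted p = 0.026), SLC41A1 (1.80, adjusted p = 0.025), col5a3a (1.52, adjusted p = 0.0043) and il34 (1.38, adjusted p = 0.033). It was smaller for si:dkey-34d22.1 (-1.49, adjusted p = 0.0063), c6.2 (-2.11, adjusted p = 0.0031) and zgc:112285 (-2.14, adjusted p = 0.011). The calls of col5a3a, si:dkey-34d22.1, c6.2 and zgc:112285 held under all 16 alternatives tried, and all 4 genes also differed from the wild type in uninjured retina, col5a3a lower and the other 3 higher. For zgc:112285 the uninjured wild type was near the floor, at 0.131, 0.185 and 0.155 CPM. After NMDA it read 17.7, 21.7 and 27.9 CPM in the wild type and 21.4, 30.3 and 23 CPM in csf1ra mutants. The calls of arf4b, f3a and il34 ended under 9, 11 and 9 of the 16. The uninjured counts of arf4b were low, at 14, 12 and 14 in the wild type and 10, 4 and 13 in csf1ra mutants.

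In csf1rb mutants the response was larger for arf4b (3.70, adjusted p = 0.044), ACKR3 (2.63, adjusted p = 0.0023), SLC41A1 (2.34, adjusted p = 0.005), sgk2b (1.72, adjusted p = 0.033), IRAK3 (1.67, adjusted p = 0.036), ZNFX1 (1.59, adjusted p = 0.025), SRF (1.58, adjusted p = 0.039) and si:ch211-178n15.1 (1.33, adjusted p = 0.018). It was also larger for il34 (1.23, adjusted p = 0.049), SLC6A8 (1.11, adjusted p = 0.022), col5a3a (0.89, adjusted p = 0.042) and IQGAP2 (0.82, adjusted p = 0.035). It was smaller for c6.2 (-1.57, adjusted p = 0.012), aff3 (-1.59, adjusted p = 0.038), si:dkey-34d22.1 (-1.91, adjusted p = 0.00074) and ESM1 (-2.17, adjusted p = 0.017). The calls of ACKR3, SLC41A1, c6.2 and si:dkey-34d22.1 held under all 16 alternatives, and those of arf4b, il34 and col5a3a ended under 11, 12 and 12 of them. The arf4b value rests on 1, 0 and 3 counts in the uninjured csf1rb libraries. After NMDA, arf4b was not called between csf1rb mutants and the wild type.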

How the results depend on the processing

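The choice of the genes depended on the threshold and on single libraries. Raising the threshold on both drug ratios to 1.5 left 14 genes, CPM with TMM factors gave 42, and leaving out 1 library at a time gave 41 (without PLX3397 replicate 2) to 70 genes. The members also changed: group medians gave 53 genes, 40 of them among the 57, leaving out DMSO replicate 3 gave 70, 47 of them among the 57, and leaving out the 4 libraries that stood apart gave 51, 41 of them among the 57. The shares of all genes called under the alternatives that follow are not given here. Without the 4 libraries that stood apart, a setting chosen after seeing the data, 7 genes were called higher and 19 lower in PLX3397 than in ZVAD-fmk. Leaving out 1 library gave 0 to 2 higher and 0 to 9 lower, and DESeq2 called 1 lower. The rule used the libraries of both drug groups, so these counts are a description. Against the wild type after NMDA, leaving out 1 library gave 5 to 11 genes higher and 1 to 3 lower in csf1ra mutants, and 4 to 13 higher and 1 to 5 lower in csf1rb mutants; without the filter on low counts 1 gene was lower in csf1ra mutants. In uninjured retina it gave 4 to 5 higher and 2 to 14 lower in csf1ra mutants (11 lower by DESeq2), and 3 to 7 higher (4 without the filter) and 9 to 16 lower in csf1rb mutants. The interactions ranged from 1 to 10 larger and 3 to 4 smaller for csf1ra (13 larger by DESeq2) and from 3 to 13 larger and 2 to 4 smaller for csf1rb. The NMDA response itself ranged from 50 to 53 genes in the wild type, from 52 to 55 in csf1ra mutants and stayed at 55 in csf1rb mutants. No gene called in the fits of the main text changed sign under an alternative. Genes called only under an alternative are not covered by that statement. The causes of the changes were not tested.

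Over all genes tested, deviations of same-numbered libraries correlated at -0.13 to 0.16 in the needle poke experiment and at -0.15 to 0.14 in the NMDA experiment. Of the libraries, 4 of 12 and 3 of 18 correlated best with their own number. A shared order by replicate number in single genes, such as c4b after NMDA in wild type and csf1ra mutants, was not tested. In the NMDA experiment the csf1ra uninjured libraries are numbered 1, 4 and 5, and the csf1rb NMDA libraries 1, 2 and 4. The numbers therefore do not match across all groups, and number 5 occurs in a single library, which the block fits exactly. With the replicate number as a block, 18 genes were higher and 4 lower in csf1ra mutants than in the wild type after NMDA, 10 higher and 6 lower in csf1rb mutants, and the csf1ra interaction was larger for 14 genes. The block gave 53, 53 and 55 genes higher after NMDA in wild type, csf1ra and csf1rb mutants, and 2 higher in PLX3397 than in ZVAD-fmk. With 3 libraries per group, a gene that was not called is not shown to be alike between groups.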

Other observations

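Of the 1474 genes with 5 CPM in both drug groups that passed the poke threshold, 93 had a log2 ratio of -1 or less under both drugs. The DMSO mean is the numerator of the poke ratio and the denominator of both drug ratios, so choosing poke-raised genes favours low drug ratios. The sizes of the sets of 93 and 57 genes can therefore not be compared. The share lowered by both drugs over all genes is not given here. After NMDA in the wild type, 88 of these 93 genes were called higher, a share of 94.6% against 35.6% of all genes. Of the 1415 tested poke-raised genes outside the 57, which include these 93, 97.0% were called higher. The median log2 fold change of the 93 genes was 5.28, against 2.42 for the 57 genes. In csf1ra and csf1rb mutants the medians of the 93 genes were 5.35 and 4.09. In uninjured csf1rb mutants, 55 of the 93 genes were already called higher than in the wild type, 59.1% against 14.5% of all genes. Their median log2 fold change there was 1.08. After NMDA, the median of csf1rb mutants over the wild type was -0.31. The uninjured level therefore enters the value of 4.09. The difference between the 93 and the 57 genes was not tested.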
